A study of Homo sapiens with 8 samples.

Results

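The E2F transcription factors and the retinoblastoma (RB) pocket proteins were followed in LNCaP cells, an established androgen-responsive line from a human prostate cancer metastasis. The members were the 10 rows of the count table whose gene name was E2F1, E2F2, E2F3, E2F4, E2F5, E2F6, E2F7, E2F8, RB1 or RBL1, of 36474 genes in all. All 10 were found, and all 10 passed the filter on low counts. The rule itself used gene names only.

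RNA was sequenced from cells given recombinant human asporin (rASPN), a secreted matrix protein, at 100 ng/mL for 0, 12 or 24 h. Before that, cells of every group had been held for 6 to 12 h in medium lacking serum and calcium. The groups held 2 libraries at 0 h, 3 at 12 h and 3 at 24 h, and the titles call them biological replicates. Cells had been plated in triplicate wells, so p-values measure the spread between such wells. A time-0 replicate had been left out by the authors for quality, and 1 of the remaining time-0 columns carries no replicate number that matches a title, so it is called the unnumbered library here. Libraries held that long in the medium without rASPN were not analysed here, so the effects of rASPN and of time cannot be told apart. The libraries come from 1 cell line and held 73406825 to 96962135 counts each. LNCaP identity was checked on prostate line markers, and 6 of them (KLK3, KLK2, FOLH1, TMPRSS2, HOXB13, STEAP2) were present, with summed levels of 4320 to 4990 CPM (counts scaled to library size by TMM). The summed stromal markers stayed at 21.2 to 23.8 CPM, nearly all of it from COL1A1, and the immune and endothelial markers at 11.3 to 17.3 CPM, nearly all of it from VWF. Of the 2 basal markers, KRT5 had no row in the file and TP63 stayed at or below 0.0688 CPM. The prostate sum was 4320 to 4400 CPM at 0 h and 4850 to 4990 CPM at 24 h, and VWF averaged 16.0 CPM at 0 h and 12.3 CPM at 24 h. Their part in the results was not tested.

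E2F proteins bind DNA, most of them with a DP partner, and set the transcription of genes for entry into and passage through S phase. E2F1, E2F2 and E2F3 are the activators. E2F4 and E2F5 repress together with a pocket protein, E2F6 represses through Polycomb-type partners, and E2F7 and E2F8 are atypical repressors that bind DNA without DP. RB1 holds the activators in check until cyclin-dependent kinases phosphorylate it, and RBL1 (p107) and RBL2 (p130) do so mainly with E2F4 and E2F5. Several E2F genes are themselves E2F targets. Loss of RB1 function is a known feature of advanced prostate cancer.

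The promoters of the activators that rose are shown first, with those of E2F4 and RBL1 for comparison, so that the E2F-type words before each start can be seen. RefSeq promoter sequences (GRCh38.p14) were on hand for 8 of the 10 members, with none for the repressors E2F5 and E2F8. Each sequence holds the 250 bases before the listed transcription start, 5′ to 3′ on the gene's own strand, and capitals mark an E2F-type word. The words searched on both strands were TTCCCGC or TTCGCGC, and likewise TTGCCGC or TTGGCGC.
E2F1, chr20:33686386-33686635, minus strand: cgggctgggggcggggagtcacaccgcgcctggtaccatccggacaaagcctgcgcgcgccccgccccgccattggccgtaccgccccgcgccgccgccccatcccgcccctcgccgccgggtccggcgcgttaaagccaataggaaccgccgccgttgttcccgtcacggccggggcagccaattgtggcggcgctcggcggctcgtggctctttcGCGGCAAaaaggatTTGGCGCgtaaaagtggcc
E2F2, chr1:23531234-23531483, minus strand: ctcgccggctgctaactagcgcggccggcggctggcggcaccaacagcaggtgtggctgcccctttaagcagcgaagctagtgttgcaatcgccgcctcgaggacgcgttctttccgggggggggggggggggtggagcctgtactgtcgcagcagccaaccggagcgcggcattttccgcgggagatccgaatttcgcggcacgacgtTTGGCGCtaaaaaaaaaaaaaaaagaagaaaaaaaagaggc
E2F3, first listed start, chr6:20401629-20401878, plus strand: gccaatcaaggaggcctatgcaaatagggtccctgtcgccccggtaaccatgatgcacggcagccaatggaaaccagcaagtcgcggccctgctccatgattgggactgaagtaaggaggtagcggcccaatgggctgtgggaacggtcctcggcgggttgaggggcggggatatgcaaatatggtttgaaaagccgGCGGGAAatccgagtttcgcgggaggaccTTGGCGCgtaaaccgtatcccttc
E2F4, chr16:67191905-67192154, plus strand: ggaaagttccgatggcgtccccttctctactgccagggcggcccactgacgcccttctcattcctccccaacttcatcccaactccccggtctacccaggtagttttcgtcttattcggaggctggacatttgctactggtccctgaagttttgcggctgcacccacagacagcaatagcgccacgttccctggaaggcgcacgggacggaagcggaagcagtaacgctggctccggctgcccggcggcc
RBL1, chr20:37095998-37096247, minus strand: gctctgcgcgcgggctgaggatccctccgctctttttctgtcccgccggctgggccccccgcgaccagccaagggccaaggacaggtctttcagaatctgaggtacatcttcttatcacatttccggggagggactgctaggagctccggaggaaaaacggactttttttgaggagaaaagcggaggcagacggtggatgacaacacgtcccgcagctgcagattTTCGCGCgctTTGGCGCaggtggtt

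E2F1 held 2 such words, at −33 to −27 and −19 to −13 from the start, and E2F2 held 1, at −41 to −35. The first listed start of E2F3 had 2, at −53 to −47 and −24 to −18, and its second start had none. RBL1 had 2, at −25 to −19 and −15 to −9. E2F7, an atypical repressor, also had 2, farther out at −176 to −170 and −133 to −127. No word was found before the listed starts of E2F4, E2F6 or RB1, and the RB1 entry belongs to a start downstream of the gene's first one. In all, 5 of 9 member entries (55.6%) held a word, against 10.9% of the 35116 promoters in the table. E2F3 entered with both its starts. The share over all promoters was not matched for GC content, which was 36.8% to 77.6% in the member entries. TTGGCGC occurred in E2F1, E2F2, E2F3 and RBL1, and on the opposite strand in E2F7. A match says only that these letters are present, and binding was not measured.

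**Figure D1:**
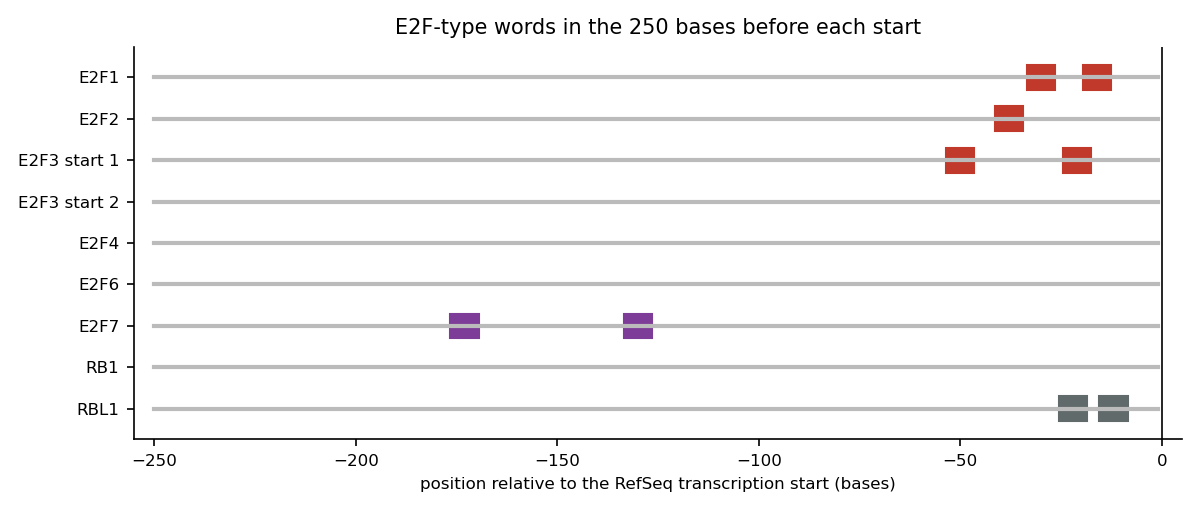
Positions of the 4 E2F-type words, on either strand, in the 250 bases before each RefSeq start (x axis, bases from the start) for the 9 member entries (rows). Boxes mark words, coloured by class as in the plots of levels. E2F1, E2F2, RBL1 and the first start of E2F3 carry words within 53 bases of the start, and the words of E2F7 lie between −176 and −127.

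To determine how the activators behaved with time, each gene was compared between time points with edgeR's quasi-likelihood test, with p-values adjusted by Benjamini-Hochberg over the 21071 genes tested. A gene passed the test at an adjusted p of at most 0.05. E2F1 (ENSG00000101412.13, chr20:33675477-33686385) rose by 12 h and stayed above time 0 at 24 h. Its levels were 19.0 and 21.1 CPM at 0 h, 29.1, 29.2 and 26.9 CPM at 12 h, and 29.4, 27.6 and 31.2 CPM at 24 h. Every library with rASPN lay above both time-0 libraries, and the 12 h and 24 h libraries overlapped. The log2 fold change was 0.51 ± 0.069 (SE) at 12 h (1.42-fold, edgeR adjusted p = 5.54e-06) and 0.56 ± 0.069 at 24 h (1.47-fold, edgeR adjusted p = 4.03e-07). From 12 to 24 h it was 0.050 ± 0.060, with a 95% interval of −0.072 to 0.17 (edgeR adjusted p = 0.792).

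E2F2 (ENSG00000007968.7, chr1:23506438-23531233), the least abundant member, moved most of the 10. It measured 1.23 and 1.97 CPM at 0 h, 2.33, 3.62 and 3.18 CPM at 12 h, and 4.08, 3.60 and 4.25 CPM at 24 h, from 108 to 371 counts per library. The time-0 libraries were lowest and differed from each other, and the lowest 24 h library lay just under the highest 12 h library. E2F2 rose 1.93-fold at 12 h (log2 fold change 0.95 ± 0.19, edgeR adjusted p = 0.00094) and 2.51-fold at 24 h (1.33 ± 0.19, edgeR adjusted p = 4.53e-06). Its 12 h call rested on the first time-0 library: without it the log2 fold change was 0.64 (edgeR adjusted p = 0.147), while the 24 h call was kept.

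E2F3 (ENSG00000112242.15, chr6:20401879-20493714) changed least of the activators and later. It measured 33.9 and 32.8 CPM at 0 h, 34.8, 38.0 and 35.0 CPM at 12 h, and 40.4, 39.9 and 39.4 CPM at 24 h. All 3 libraries at 24 h lay above all others, and the 12 h libraries lay only slightly above time 0. The log2 fold change was 0.11 ± 0.058 at 12 h (edgeR adjusted p = 0.266) and 0.26 ± 0.058 at 24 h (1.20-fold, edgeR adjusted p = 0.00168). Between 12 and 24 h it was 0.15 ± 0.052 (edgeR adjusted p = 0.125), so the later timing of E2F3 was not established by a test. Counts are per gene, so transcripts from both listed starts of E2F3 were not told apart.

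**Figure D2:**
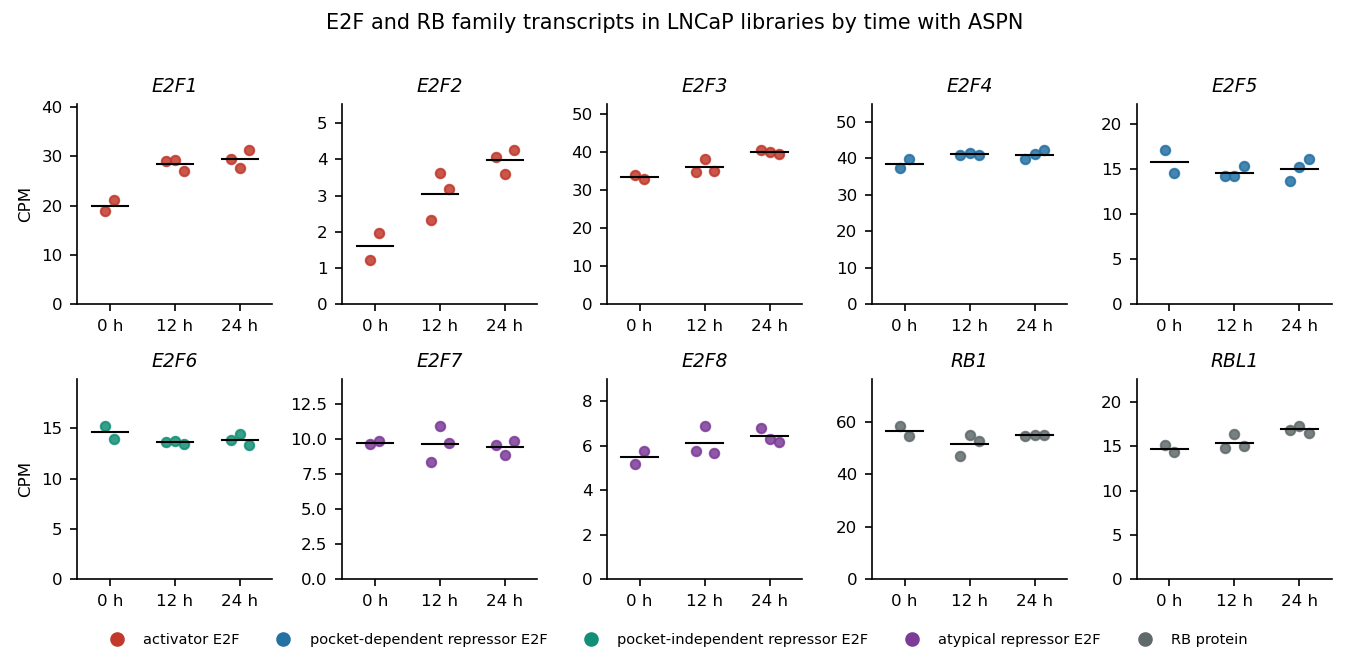
Level of each member in every library (y axis, CPM on a linear axis from 0) at 0 h (2 libraries), 12 h (3) and 24 h (3) of rASPN (x axis). Points are libraries, bars are group means and colours are classes. E2F1 and E2F2 lie higher at 12 h and 24 h than at 0 h, and E2F3, E2F8 and RBL1 at 24 h. Of these, E2F8 and RBL1 did not pass the test. E2F4 to E2F7 and RB1 stay near their time-0 levels.

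Among the repressors, none of 5 passed the test at any comparison. E2F4 (ENSG00000205250.9, chr16:67192155-67198918), the main E2F of quiescent cells, measured 37.3 and 39.7 CPM at 0 h, 40.8, 41.5 and 41.0 CPM at 12 h, and 39.7, 41.2 and 42.2 CPM at 24 h. Its 24 h libraries reached down to the higher time-0 library. The log2 fold change at 24 h was 0.092 ± 0.056, with a 95% interval of −0.022 to 0.21 (edgeR adjusted p = 0.311).

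E2F5 ranged from 13.6 to 17.0 CPM over the 8 libraries and E2F6 from 13.3 to 15.2 CPM, each with its highest value in the first time-0 library. Their log2 fold changes at 24 h were −0.079 ± 0.083 and −0.076 ± 0.077. Exons of E2F5 (ENSG00000133740.11, chr8:85177154-85217158) share 16.6% of their bases with RBIS on the opposite strand, and the use of strand in counting was not given in the sources used here, so its level is uncertain. E2F6 (ENSG00000169016.17, chr2:11444375-11466177) has 3 processed pseudogenes at least 99.2% identical over 17.4% to 17.6% of its transcript, each with 2 or 3 counts over all libraries.

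The atypical repressors E2F7 (ENSG00000165891.16, chr12:77021248-77065569) and E2F8 (ENSG00000129173.13, chr11:19224063-19241620) are usually induced in S phase. E2F7 measured 9.66 and 9.88 CPM at 0 h, 8.38, 10.99 and 9.72 CPM at 12 h, and 9.58, 8.91 and 9.86 CPM at 24 h, and its groups overlapped throughout. Its log2 fold change at 24 h was −0.049 ± 0.099 (95% interval −0.25 to 0.15). E2F8 measured 5.20 and 5.78 CPM at 0 h, 5.77, 6.91 and 5.68 CPM at 12 h, and 6.80, 6.33 and 6.15 CPM at 24 h. All its 24 h libraries lay above time 0, but the log2 fold change of 0.23 ± 0.11 (95% interval −0.0012 to 0.46) did not pass (edgeR adjusted p = 0.186).

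RB1 (ENSG00000139687.16, chr13:48303744-48599436) was well expressed at every time. It measured 58.6 and 54.7 CPM at 0 h, 47.0, 54.9 and 52.7 CPM at 12 h, and 54.6, 55.0 and 54.9 CPM at 24 h. The first 12 h library was lowest, and the 24 h libraries almost coincided with the lower time-0 library. The log2 fold change was −0.14 ± 0.058 at 12 h (edgeR adjusted p = 0.134) and −0.047 ± 0.058 at 24 h (95% interval −0.16 to 0.071, edgeR adjusted p = 0.670). Phosphorylation of the protein was not measured.

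RBL1 (ENSG00000080839.12, chr20:36996349-37095997) lay higher in every 24 h library than in any other. It measured 15.1 and 14.4 CPM at 0 h, 14.8, 16.4 and 15.0 CPM at 12 h, and 16.9, 17.4 and 16.5 CPM at 24 h. The log2 fold change at 24 h was 0.20 ± 0.075 (1.15-fold) and missed the threshold (edgeR adjusted p = 0.0728), although DESeq2 on the same counts placed it just inside (adjusted p = 0.0472). RBL2, the third pocket protein and not a member, moved the other way. It averaged 154 ± 12.7 CPM (SD, n = 2) at 0 h, 136 ± 1.87 CPM (n = 3) at 12 h and 134 ± 4.27 CPM (n = 3) at 24 h. It fell by 0.18 on the log2 scale at 12 h (edgeR adjusted p = 0.0120) and by 0.20 at 24 h (edgeR adjusted p = 0.00454), and neither call was kept without the first time-0 library (adjusted p = 0.463 and 0.245). The ratio of RBL1 to RBL2, per kilobase of exon, was 0.126 and 0.135 at 0 h, 0.150, 0.166 and 0.149 at 12 h, and 0.175, 0.178 and 0.161 at 24 h.

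At 12 h, 2 of 10 members passed the test, both higher, against 11.6% of all genes tested (4.85% higher). At 24 h, 3 of 10 passed, all higher, against 16.3% of all genes (7.82% higher). The 3 were E2F1, E2F2 and E2F3, so every activator and no repressor or RB protein had passed. The classes were not tested against each other, and E2F8 (0.23) changed nearly as much as E2F3 (0.26) on the log2 scale. Only E2F2 also changed by at least 1.5-fold, at 12 h and at 24 h, against 1.05% (0.489% higher) and 2.45% (1.1% higher) of all genes. Between 12 and 24 h, 0 of 10 passed by edgeR and 0 by DESeq2, where 2.72% of all genes passed by edgeR. The 2 members at an unadjusted p under 0.05 in that comparison were E2F2 and E2F3, and 13.6% of all genes were below it. Libraries did not overlap between 0 and 12 h for 5 members, 4 higher (E2F1 to E2F4) and 1 lower (E2F6), where 36.9% of all genes did not overlap (17.3% higher, 19.6% lower). From 0 to 24 h they did not overlap for 5 members, all higher (E2F1, E2F2, E2F3, E2F8 and RBL1), where 43.2% of all genes did not (21.5% higher). From 12 to 24 h they did not overlap for E2F3 and RBL1, both higher, where 19.6% of all genes did not (10.3% higher). Comparisons with 0 h share its libraries.

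**Figure D3:**
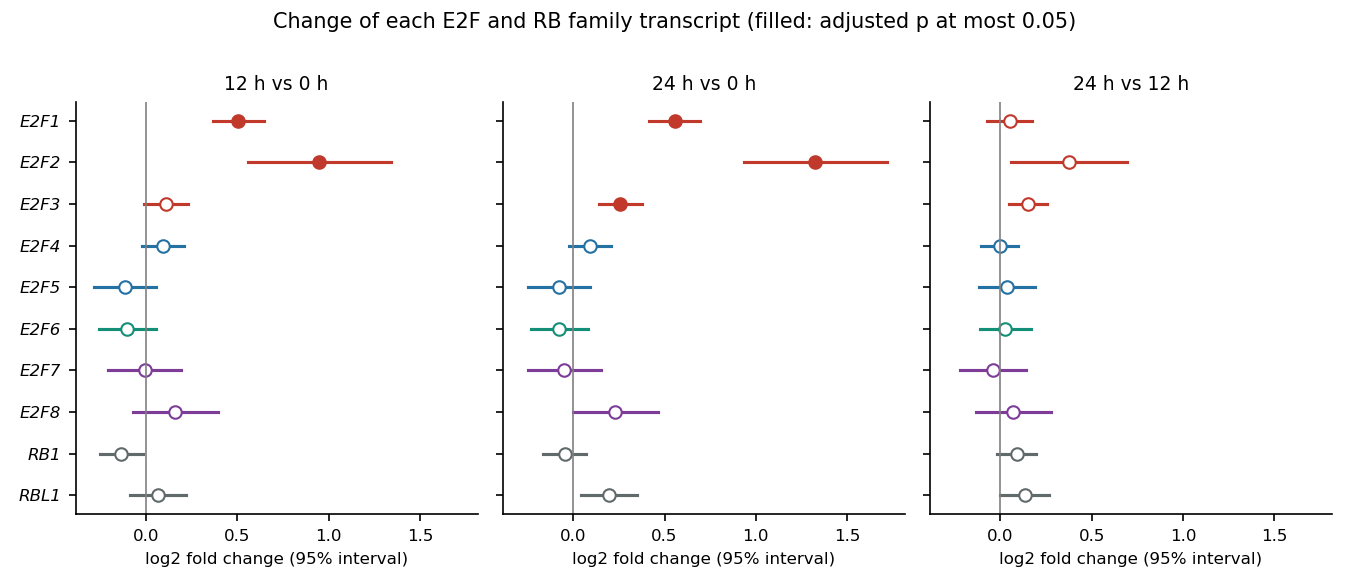
Log2 fold change of each member (rows, coloured by class) in the 3 comparisons, with 95% intervals as lines. Filled points passed the edgeR test at an adjusted p of at most 0.05. E2F1 and E2F2 are filled at 12 h and all 3 activators at 24 h, and no point is filled for 24 h against 12 h.

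To compare the classes on 1 scale, levels were divided by the length of each gene's exons (CPM per kb). At 0 h the order was E2F4 (10.7 CPM per kb), RB1 (8.80), E2F1 (7.44), E2F3 (6.42), E2F6 (3.58), E2F5 (2.63), RBL1 (2.48), E2F7 (1.55), E2F8 (1.33) and E2F2 (0.292), and among neighbours only E2F5 and RBL1 overlapped in their libraries. At 12 h E2F1 (10.6 CPM per kb) lay above RB1 (8.01), which overlapped with E2F3 (6.92), as E2F5 did with RBL1 and E2F7 with E2F8. At 24 h E2F1 reached 10.9 CPM per kb beside 11.4 for E2F4, with overlapping libraries, and the other overlapping neighbours were E2F7 and E2F8. E2F2 stayed last at every time, at 0.728 CPM per kb at 24 h.

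The summed activators measured 13.8 and 14.5 CPM per kb at 0 h, 17.9, 18.8 and 17.3 at 12 h, and 19.5, 18.6 and 19.95 at 24 h. The summed repressors measured 19.8 and 19.9 at 0 h, 19.8, 20.7 and 20.2 at 12 h, and 19.9, 20.5 and 20.7 at 24 h. The activator sum thus lay higher in every library with rASPN, and the repressor sum varied within 19.8 to 20.7. The ratio of activators to repressors was 0.699 and 0.731 at 0 h, 0.905, 0.910 and 0.860 at 12 h, and 0.979, 0.909 and 0.962 at 24 h. On the log2 scale it differed from 0 h by 0.32 at 12 h and 0.41 at 24 h, beside a pooled SD within groups of 0.0498. The 12 h and 24 h ratios overlapped. No test was run on these sums over chosen members.

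E2F1 made up most of the difference between the activator sum at 0 h and those at 12 and 24 h. Its share of all E2F levels went from 21.9% ± 1.26 (SD, n = 2) at 0 h to 27.6% ± 0.98 (n = 3) at 12 h and 27.5% ± 1.14 (n = 3) at 24 h. The share of E2F4 went from 31.5% ± 0.866 to 29.9% ± 0.617 and 28.7% ± 0.629. E2F3 held 18.9%, 18.1% and 19.4%, and E2F2, despite the largest fold change, held 0.858%, 1.46% and 1.83%.

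**Figure D4:**
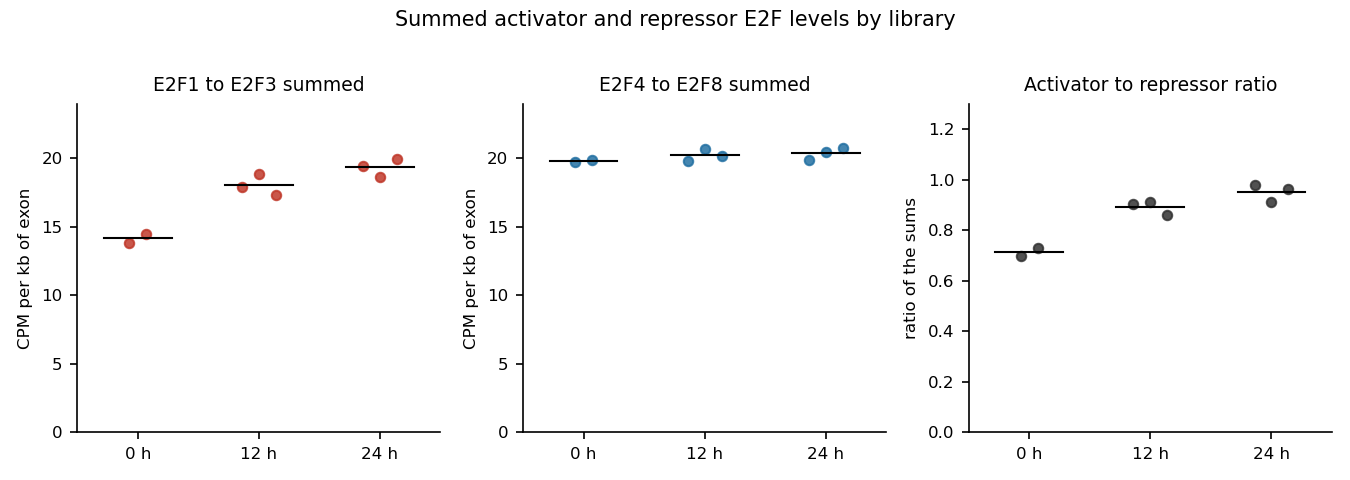
Summed levels of the activators E2F1 to E2F3 and the repressors E2F4 to E2F8 (y axes, CPM per kb of exon, from 0) and their ratio, for each library by time (x axis). Points are libraries and bars are group means. The activator sum and the ratio lie higher at 12 h and 24 h than at 0 h, with the repressor sum between 19.8 and 20.7 in all 8 libraries.

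The regulators upstream of RB1 were read from a list of 15 cyclins, kinases and inhibitors, of which 14 could be tested. Genes of this and the later lists are said to rise or fall only where they passed the test. At 12 h, 4 rose and 2 fell, and at 24 h, 5 rose and 3 fell. Of all 21071 genes tested, 1021 rose and 1422 fell at 12 h, and 1648 rose and 1789 fell at 24 h. The list median at 24 h was 0.0459, beside −0.00307 over all genes. CDKN1A (p21), an inhibitor of CDK2, averaged 302 ± 0.552 CPM in the 2 time-0 libraries, 208 ± 15.2 CPM in the 3 at 12 h and 172 ± 2.44 CPM (SDs) in the 3 at 24 h, with a log2 fold change of −0.81 ± 0.048 at 24 h (edgeR adjusted p = 1.85e-13). CDKN1B (p27), which also inhibits CDK2, fell by 0.36 on the log2 scale at 24 h (edgeR adjusted p = 6.89e-07). CCNE2, a cyclin that activates CDK2 and an E2F target, rose 1.94-fold at 24 h (log2 fold change 0.96 ± 0.13, edgeR adjusted p = 1.67e-06), although 37.0% of its exon bases are shared with INTS8 on the other strand. The others that passed at 24 h, named after their values were seen, were CCND1 (0.29), CCND3 (0.25), CCNE1 (0.27) and CDK2 (0.37), which rose, and CDKN2D (−0.35), which fell. At 12 h CCND1, CCND3, CCNE2 and CDK2 rose and CDKN1A and CDKN1B fell, but without the first time-0 library none of the 4 rises passed and both falls did, and without the third 12 h library 2 of the rises passed.

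Of the DP partners, TFDP2 rose by 0.16 ± 0.051 on the log2 scale at 24 h (edgeR adjusted p = 0.0273) and TFDP1 measured 0.11 ± 0.048 without passing, while TFDP3 had no row in the file. The TFDP2 value barely moved under the alternatives (0.14 to 0.18), but its call was lost in 6 of 17 of them, without either time-0 library or 24 h library 2 or 3 and with a replicate block (adjusted p = 0.0633 to 0.131). Of 8 E2F6 partners, L3MBTL2 alone passed, and only at 12 h (0.16, edgeR adjusted p = 0.0432), a call that was lost under 11 of 17 alternatives (log2 fold changes 0.15 to 0.18, adjusted p where lost 0.0506 to 0.277). CBX3 (0.12) and PCGF6 (−0.13) did not pass at 24 h. Over all genes tested, 11.6% passed at 12 h and 16.3% at 24 h. The MuvB core joins RBL1 or RBL2 with E2F4 in the DREAM repressor complex, or MYBL2 and FOXM1 in activator complexes. A list of 7 genes held the core subunits and the partners MYBL2 and FOXM1, and 2 of them passed at 12 h and 3 at 24 h. The partner MYBL2 rose by 0.42 ± 0.060 at 12 h (edgeR adjusted p = 1.17e-05) and less at 24 h (0.23 ± 0.060, edgeR adjusted p = 0.00725). The partner FOXM1 measured 0.10 at 12 h and −0.14 at 24 h without passing (edgeR adjusted p = 0.220 and 0.0611). The core subunits LIN9 (0.052), LIN37 (−0.17) and RBBP4 (−0.11) did not pass at 24 h. LIN54, the DNA-binding subunit, fell by 0.24 at 12 h and by 0.25 at 24 h (edgeR adjusted p = 0.0128 and 0.00504), and LIN52 fell by 0.25 at 24 h (edgeR adjusted p = 0.0434). Without the first time-0 library LIN54 measured −0.18 at 12 h and −0.20 at 24 h (adjusted p = 0.290 and 0.139) and MYBL2 0.086 at 24 h (adjusted p = 0.492), and these calls were lost. The LIN52 call was lost under 7 of 17 alternatives, among them no filter on low counts, with log2 fold changes of −0.30 to −0.21 (adjusted p where lost 0.0579 to 0.271).

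Of 20 G1/S E2F targets, 14 rose at 12 h and 14 at 24 h and none fell. Among all genes tested, 4.85% rose at 12 h and 7.82% at 24 h. By sign alone, 18 of the 20 lay higher at 12 h and 16 at 24 h, where 10514 and 10405 of all 21071 genes did. The list medians were 0.317 and 0.324, beside −0.000686 and −0.00307 over all genes. UHRF1, a reader of hemimethylated DNA, rose 2.28-fold at 24 h (log2 fold change 1.19 ± 0.071, edgeR adjusted p = 1.85e-13). MCM5 and MCM6, subunits of the replicative helicase, each rose 1.72-fold at 24 h (edgeR adjusted p = 8.84e-10 and 2.19e-10). Without the first time-0 library, 11 of the 20 rose at 12 h and 12 at 24 h. From 12 to 24 h, 2 of the 20 rose and 1 fell, with a list median of −0.00554 beside 0.00345 over all genes. Of all 21071 genes tested, 235 rose and 339 fell in that comparison. Without the first 24 h library, 0 of the 20 rose and 0 fell from 12 to 24 h. Of 24 promoter entries for the G1/S targets, from 17 genes, 62.5% held an E2F-type word, against 10.9% of all promoters. These shares were not matched for GC content.

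Of 12 G2/M targets of DREAM, 1 (MKI67) rose at 12 h, none rose and 6 fell at 24 h, and 10 fell from 12 to 24 h. By sign alone, all 12 lay lower at 24 h than at 0 h, where 10666 of all 21071 genes did. The list median in that comparison was −0.176, beside −0.00307 over all genes. Of all 21071 genes tested, 1021 rose at 12 h, 1789 fell at 24 h and 339 fell from 12 to 24 h. The list median from 12 to 24 h was −0.245, beside 0.00345 over all genes. AURKA, a mitotic kinase, fell by 0.32 on the log2 scale from 0 to 24 h (edgeR adjusted p = 0.000411) and by 0.29 from 12 to 24 h (edgeR adjusted p = 0.00233). CCNB2, a mitotic cyclin, fell by 0.30 from 0 to 24 h, and CENPF, a kinetochore protein, by 0.22 (edgeR adjusted p = 0.000101 and 0.00299). Without the unnumbered time-0 library only 2 of the 12 fell from 0 to 24 h. From 12 to 24 h the count that fell was 6 without the first or the second 24 h library. The count that rose at 12 h was 0 to 2 under the alternatives, and 0 without the first time-0 or the third 12 h library. Of 13 promoter entries for these genes, from 11 of them, 61.5% held the CHR word TTTGAA, on either strand, against 13.3% of all promoters. An E2F-type word was held by 23.1%, against 10.9% of all promoters, again without matching for GC content. In bulk RNA, fewer cells in a phase of the cell cycle and less RNA per cell cannot be told apart.

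**Figure D5:**
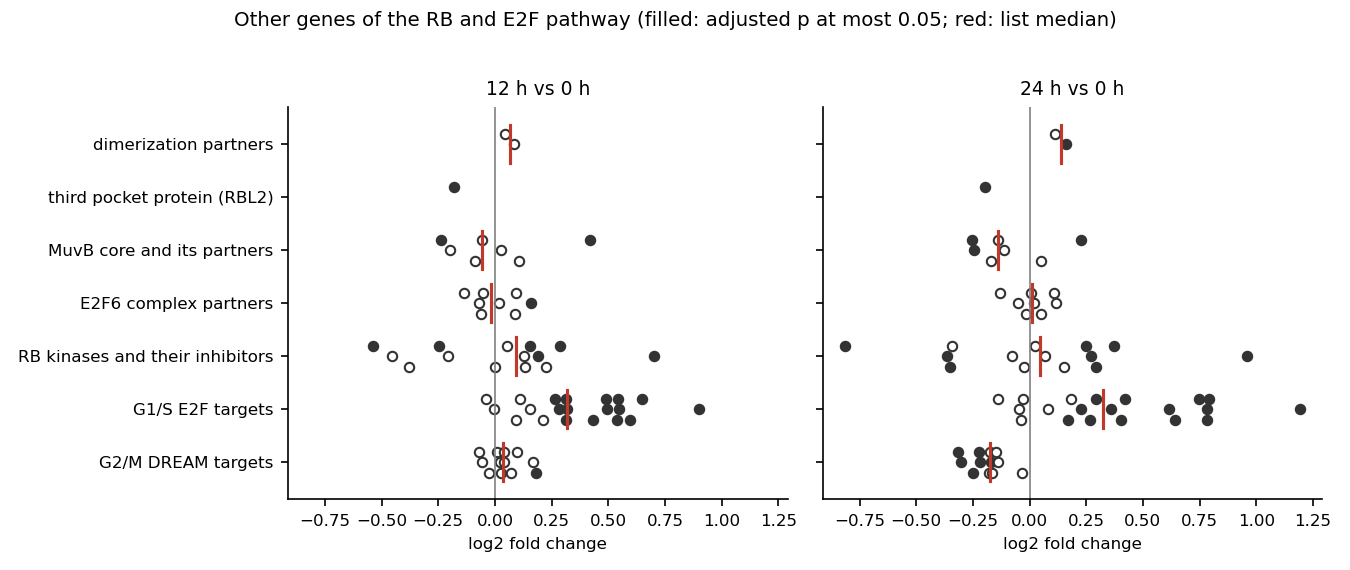
Log2 fold change (x axis) of the other genes of the pathway at 12 h and 24 h against 0 h, by list (rows). Each point is a gene, filled where the edgeR adjusted p was at most 0.05, and red bars are list medians. The G1/S targets lie mostly to the right at both times, and all 12 G2/M targets lie left of 0 at 24 h.

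The genes whose levels followed a member most closely were found over the 8 libraries among 12718 genes, as a description without a test, since the libraries share groups. For E2F1 these were CBX2 (Pearson r of log2 CPM 0.992), UQCC3 (0.989) and RPS6KA4 (0.987). For E2F2 they were MTA2 (0.997), CCNE2 (0.989) and MSH6 (0.988), whose log2 fold changes at 24 h were 0.15, 0.96 and 0.29, so a close match in shape came with unequal sizes. For E2F7, which passed no comparison, they were SGO1 (0.960), PLEKHB2 (0.930) and WDR82 (0.928), none of which passed the test at 24 h.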

How the data were processed

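RNA from LNCaP cells was prepared with a poly(A) kit and sequenced as read pairs. According to the study's methods, the authors trimmed adapters with Cutadapt, aligned reads to GRCh38 with STAR and counted them per GENCODE gene with featureCounts. The deposited values are raw counts, not normalized, and strand and multi-mapping options were not given in the sources used here. Symbols and coordinates came from the file, and coordinates equalled those of GENCODE 44 for the 30996 of the file's 36474 versioned identifiers that both held. The methods name another GENCODE release. E2F3 was matched by its identifier without version.

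Counts were scaled by TMM, filtered with filterByExpr (21071 genes kept) and fitted with edgeR 4.0.16 in R 4.3.3, with each time point as a coefficient and all 8 libraries in the fit. The biological coefficient of variation was 5.59%. Standard errors are the log2 fold change divided by the square root of F, and intervals are 95%. The fit was tested on simulated data. DESeq2 1.42.0 was an alternative. Exon lengths for CPM per kb came from GENCODE 44.

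The members and lists were chosen with earlier results of these data known. Genes named by rule were all members and the 3 genes of each list with the smallest p at 24 h against 0 h. The rule also named the 3 genes most correlated with E2F1, E2F2 and E2F7. Other listed genes were named outside this rule, among them MKI67, FOXM1, CCND1, CCND3, CCNE1, CDK2, CDKN2D, COL1A1, KLK2, FOLH1 and STEAP2. Counts of genes past the test in 3 lists under the alternatives, and the replicate block with 0 h, were added after seeing the data. Another prostate marker of the list is not reported here.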

Additional observations from a re-analysis of the deposited data

Results flagged for a closer look

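For 13 of the genes named above, none of them a member, the change from 0 h differed between 12 and 24 h in the direct edgeR test of 24 h against 12 h. Over all 21071 genes tested, 2.72% passed that comparison. Several of the 13 were named outside the rule, and listed genes that passed but were not named above are left out. The adjusted p-values were 0.0429 for MYBL2, 0.000302 for CDKN1A, 0.0159 for MCM6, 0.00424 for UHRF1, 0.00288 for CCNB2, 0.00233 for AURKA, 0.000106 for CENPF, 6.62e-05 for MKI67, 0.00194 for FOXM1 and 0.0383 for CCND1. Among the prostate line markers they were 0.0129 for KLK3, 0.000677 for FOLH1 and 0.000875 for STEAP2. MYBL2 was lower at 24 h than at 12 h by 0.19 on the log2 scale while above 0 h at both times. CDKN1A moved further down by 0.27, and MCM6 and UHRF1 further up by 0.23 and 0.29. The MYBL2 call was lost in 5 of the fits that left out 1 library (adjusted p = 0.0582 to 0.175), the MCM6 call in 4 (0.0558 to 0.149) and the UHRF1 call without the first 24 h library (0.0656). FOXM1 and MKI67 were lower at 24 h than at 12 h by 0.24 and 0.33, and KLK3 by 0.18, while CCND1, FOLH1 and STEAP2 were higher by 0.14, 0.21 and 0.24. The CCND1 call was lost under 7 of 16 alternatives (adjusted p = 0.0515 to 0.204) and the KLK3 call under 3, each leaving out 1 library (0.0663 to 0.163). CENPF had a log2 fold change of 0.097 at 12 h, which did not pass, and of −0.22 at 24 h.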

How the results depend on the processing

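Of 500 member values under the alternatives, 482 kept their direction and their side of the threshold. E2F1 at both times, and E2F2 and E2F3 at 24 h, were kept under all 17 alternatives, and the E2F2 value at 24 h ranged from 1.01 to 1.70 when 1 library was left out. RBL1 at 24 h passed under DESeq2, with only the 0 h and 24 h libraries (adjusted p = 0.0479) and without the first 12 h library. Without the second 12 h library, RB1 passed at 12 h (−0.18, adjusted p = 0.0372) and E2F3 passed from 12 to 24 h (0.19, adjusted p = 0.0458). Leaving out 1 library gave 1 to 3 members past the test at 12 h and 0 to 1 from 12 to 24 h. The log2 difference of the activator to repressor ratio from 0 h stayed within 1 SD of its value, at 0.28 to 0.35 at 12 h and 0.38 to 0.44 at 24 h. The ratio itself depended on the scale: at 0 h it was 0.640 and 0.666 on CPM without length, and 0.814 and 0.859 without E2F7 and E2F8, where it reached 1.06 to 1.16 at 24 h.

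All genes called at 1.5-fold numbered 140 at 12 h and 322 at 24 h, in place of 222 and 516, under a mean of at least 100 normalized counts, which tests fewer genes. Leaving out 1 library gave 78 to 300, 265 to 567 and 16 to 46 in the 3 comparisons, with the lowest of the first 2 without the first time-0 library. Signs turned only for values that did not pass, and the cause was not tested. For E2F7 at 12 h they were 0.0050 with upper-quartile factors, 0.0015 with no filter and 0.00087 under the stricter filter, and −0.11 to 0.092 without 1 library. For PCGF6 from 12 to 24 h they were −0.0013 with upper-quartile factors and −0.0027 under the stricter filter, and −0.042 to 0.073 without 1 library. Without 1 library E2F5 ranged from −0.21 to 0.0053 at 12 h, −0.18 to 0.037 at 24 h and −0.018 to 0.099 from 12 to 24 h. From 12 to 24 h E2F4 ranged from −0.022 to 0.021, E2F6 from −0.0099 to 0.053, E2F7 from −0.14 to 0.059, LIN54 from −0.052 to 0.021 and RBL2 from −0.040 to 0.0029. At 12 h AURKA ranged from −0.043 to 0.018 and CBX3 from −0.044 to 0.078, with −0.0098 under the replicate block that takes the unnumbered library as replicate 3. The G2/M targets that fell numbered 2 to 9 from 0 to 24 h and 6 to 10 from 12 to 24 h, and the RB kinases and inhibitors that rose at 12 h numbered 0 to 5.

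Same-numbered 12 h and 24 h libraries correlated at 0.101, 0.027 and 0.0292 in their deviations from group means, and the second 12 h library correlated best with another number, so the numbers were not taken as pairs. With the replicate block, 0 members passed and 42 genes were called from 12 to 24 h, in place of 38. The second 0 h column carries a number that matches no 0 h title, so a block for comparisons with 0 h, added after seeing the data, took it once as replicate 2 and once as replicate 3. The same numbers of members passed (2 at 12 h, 3 at 24 h), with 206 and 219 genes called at 12 h and 466 and 467 at 24 h.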
